A study of Mus musculus with 6 samples.

Results

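The Kruppel-like factors described here are 10 members of the mouse Klf gene family, Klf2, Klf3, Klf4, Klf5, Klf6, Klf7, Klf9, Klf10, Klf12 and Klf13. They were chosen by name, with earlier results of these data known. They were 10 of the 37620 genes in each count table, in which genes carry Ensembl identifiers that were mapped to symbols. RNA was counted in 6 libraries: 2 of wild-type J1 mouse embryonic stem cells (ESC), 2 of wild-type neural progenitor cells (NPC) made from J1 cells in culture, and 2 of Phc1-/- cells of the same strain (Phc1-KO), which lack a Polyhomeotic subunit of Polycomb repressive complex PRC1 by genotype. ESC were cultured on mitotically inactivated fibroblast feeders in medium with serum and the cytokine LIF, and feeders were removed before use. The study set out to compare NPC, and ESC without Phc1, with wild-type ESC. No treatment was applied beyond these culture conditions, and the part of Phc1 that was deleted and the number of clones were not given in the sources used here. The labels call the libraries of a group biological replicates without saying whether they were separate cultures, so p-values measure the spread between these libraries only.

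Kruppel-like factors are transcription factors with zinc fingers near the carboxyl end, through which they bind GC-rich and CACCC-type sequences in promoters and enhancers. Outside the zinc fingers they differ: some members activate transcription, others recruit the co-repressors CtBP or Sin3. In mouse embryonic stem cells Klf2, Klf4 and Klf5 are known for sustaining self-renewal, Klf4 is a direct target of LIF signalling through STAT3, and in the nervous system Klf7 and Klf9 are known for roles in neuron differentiation and axon growth.

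Promoters of 4 members are shown as examples of genes that were low in NPC (Klf2 and Klf4) and high in NPC (Klf7 and Klf12). Each is the 250 bases before the RefSeq transcription start, read 5′ to 3′ on the gene's strand, in build GRCm38.p6, whereas gene positions given further on are in mm9. Capitals mark the letters CACCC and GGGCGG, the kinds of site this family and the related Sp factors bind, in either orientation, so that GGGTG and CCGCCC are the same motifs on the opposite strand. Matches of 1 motif may share a base, as the first pair in Klf4 does. The windows lie at chr8:72318812-72319061 on the plus strand for Klf2, chr4:55532476-55532725 on the minus strand for Klf4, chr1:64121390-64121639 on the minus strand for Klf7 and chr14:100149797-100150046 on the minus strand for Klf12.
Klf2: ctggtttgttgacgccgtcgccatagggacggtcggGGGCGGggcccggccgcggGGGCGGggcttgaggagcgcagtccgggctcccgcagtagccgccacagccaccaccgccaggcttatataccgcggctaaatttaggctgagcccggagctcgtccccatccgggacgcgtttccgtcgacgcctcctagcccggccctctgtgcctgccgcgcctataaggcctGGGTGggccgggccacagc
Klf4: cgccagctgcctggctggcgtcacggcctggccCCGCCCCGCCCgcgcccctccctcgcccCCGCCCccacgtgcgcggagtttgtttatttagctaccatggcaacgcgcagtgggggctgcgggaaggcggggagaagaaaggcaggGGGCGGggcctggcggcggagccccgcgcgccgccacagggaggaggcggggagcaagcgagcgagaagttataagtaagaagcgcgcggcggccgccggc
Klf7: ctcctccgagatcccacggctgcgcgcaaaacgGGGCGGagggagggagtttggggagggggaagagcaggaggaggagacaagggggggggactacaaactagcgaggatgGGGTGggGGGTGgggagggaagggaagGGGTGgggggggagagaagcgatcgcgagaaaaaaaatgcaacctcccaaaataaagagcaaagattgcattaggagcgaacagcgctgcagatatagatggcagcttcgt
Klf12: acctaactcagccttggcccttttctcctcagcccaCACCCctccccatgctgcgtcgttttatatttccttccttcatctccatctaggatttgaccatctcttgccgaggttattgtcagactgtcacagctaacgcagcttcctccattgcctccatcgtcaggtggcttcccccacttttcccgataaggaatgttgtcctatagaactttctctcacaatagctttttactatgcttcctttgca

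The Klf4 window held 4 matches to GGGCGG and 0 to CACCC, and that of Klf2 held 2 and 1. The Klf7 window held 1 match to GGGCGG and 3 to CACCC, and that of Klf12 held 0 and 1. CpG dinucleotides numbered 29 for Klf2, 32 for Klf4, 13 for Klf7 and 6 for Klf12, against a median of 6 over 32851 RefSeq promoter windows of the same length. The window of Klf3, not shown and also higher in NPC, held 6 matches to GGGCGG, 5 to CACCC and 23 CpG. That of Klf9, lower in NPC, held 0, 1 and 18, and that of Klf13, also lower in NPC, held 3, 1 and 24. The windows shown thus do not stand for all members called in either direction. Of the 8 members with a window in the RefSeq table, 6 held CACCC and 6 held GGGCGG, against 52.0% and 32.7% of all windows. The palindrome TTCNNNGAA, the form STAT factors bind, was in 1 of the 8, that of Klf9, and in 7.02% of all windows.  These matches describe letters and no binding was measured.

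Depth was 15226214 to 21893821 reads counted in genes per library. Values are given as CPM, counts per 1000000 reads after TMM scaling, and, where genes are compared with each other, as RPKM, which is CPM divided by the length of a gene's merged exons in kilobases. Beyond counting noise, ESC libraries varied by 1.98% (coefficient of variation), those of NPC by 27.5% and those of Phc1-KO by 18.1%. Reads outside annotated genes numbered 1.08 per gene read in Phc1-KO 1 but 0.6605 in Phc1-KO 2. Phc1 itself averaged 460.1 CPM in ESC, 37.7 CPM in NPC and 297 CPM in the libraries labelled Phc1-KO, and the counts, being per gene, cannot tell which exons this RNA held. These libraries are ESC by the study's title but NPC by the entry for cell type. The summed level of 8 pluripotency genes was 2279.5 and 2271 CPM in ESC, 125 and 115 CPM in NPC, and 1805 and 2035 CPM in Phc1-KO. That of 5 neural progenitor genes was 162 and 171 CPM in ESC, 2622 and 1035 CPM in NPC, and 169.8 and 144 CPM in Phc1-KO. By these sums the Phc1-KO libraries were nearer ESC than NPC, but the pluripotency sum covers genes that moved in opposite directions. Of its 8 genes, 2 were lower in Phc1-KO than in ESC and 1 was higher. Tfcp2l1 had a log2 fold change of -1.76 (edgeR adjusted p = 0.00739) and Nanog one of -0.83 (adjusted p = 0.0245). For Nr0b1 it was 0.77 (adjusted p = 0.0247). Leaving out Phc1-KO 2 gave log2 fold changes of -1.53, -0.69 and 0.61 for these genes. The neural sum is mostly Nes in ESC and Phc1-KO. In NPC it is mostly Fabp7, at 1355 and 459 CPM, and Nes, at 978 and 489 CPM. Pax6 was instead near NPC in Phc1-KO, at 4.44 and 4.68 CPM in ESC, 21.0 and 16.9 CPM in NPC and 21.5 and 20.8 CPM in Phc1-KO. Its log2 fold change in Phc1-KO against ESC was 2.21 (SE 0.20, edgeR adjusted p = 0.00327). In bulk RNA, fewer cells of a type and less RNA per cell cannot be told apart.

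Klf2, Klf4 and Klf5, the self-renewal factors, were the members that fell most from ESC to NPC, and all remained detectable there. Klf2 (ENSMUSG00000055148, chr8:74842932-74845555 in mm9, plus strand), a factor that also shapes endothelial and T-cell quiescence, stood at 111 and 112 CPM in ESC, 6.25 and 14.2 CPM in NPC and 72.1 and 58.8 CPM in Phc1-KO. Both NPC libraries lay far below all others, and both Phc1-KO libraries lay between the other groups. In NPC its level was 10.9-fold lower than in ESC, a log2 fold change of -3.45 (SE 0.35, edgeR quasi-likelihood test, Benjamini-Hochberg adjusted p = 0.000231).

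Klf4 (ENSMUSG00000003032, chr4:55540013-55545347, minus strand), one of the reprogramming factors that restore pluripotency to somatic cells, stood at 75.2 and 80.1 CPM in ESC, 5.06 and 6.69 CPM in NPC and 61.0 and 39.6 CPM in Phc1-KO. The order of the groups was that of Klf2, with no overlap between any of them. Klf4 fell 13.2-fold from ESC to NPC, a log2 fold change of -3.72 (SE 0.27, edgeR adjusted p = 5.55e-05). Of the 50-base windows in its exons, 87.4% occur once in the mm9 genome, the lowest share among the members, and reads from the other windows may not have been counted.

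Klf5 (ENSMUSG00000005148, chr14:99697910-99712624, plus strand), which also maintains intestinal crypt cells, stood at 35.2 and 35.2 CPM in ESC, 1.12 and 2.92 CPM in NPC and 34.8 and 22.9 CPM in Phc1-KO. Here 1 Phc1-KO library was next to the ESC level and the other was lower, and NPC was again far below. Its fall from ESC to NPC was the steepest of the 10 members, at 17.3-fold, a log2 fold change of -4.12 (SE 0.42, edgeR adjusted p = 0.000221). The NPC values of Klf5 rest on 17 and 45 reads. Klf2 and Klf5 were both lower in NPC 1 than in NPC 2, with ratios of 0.439 and 0.383.

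**Figure D1:**
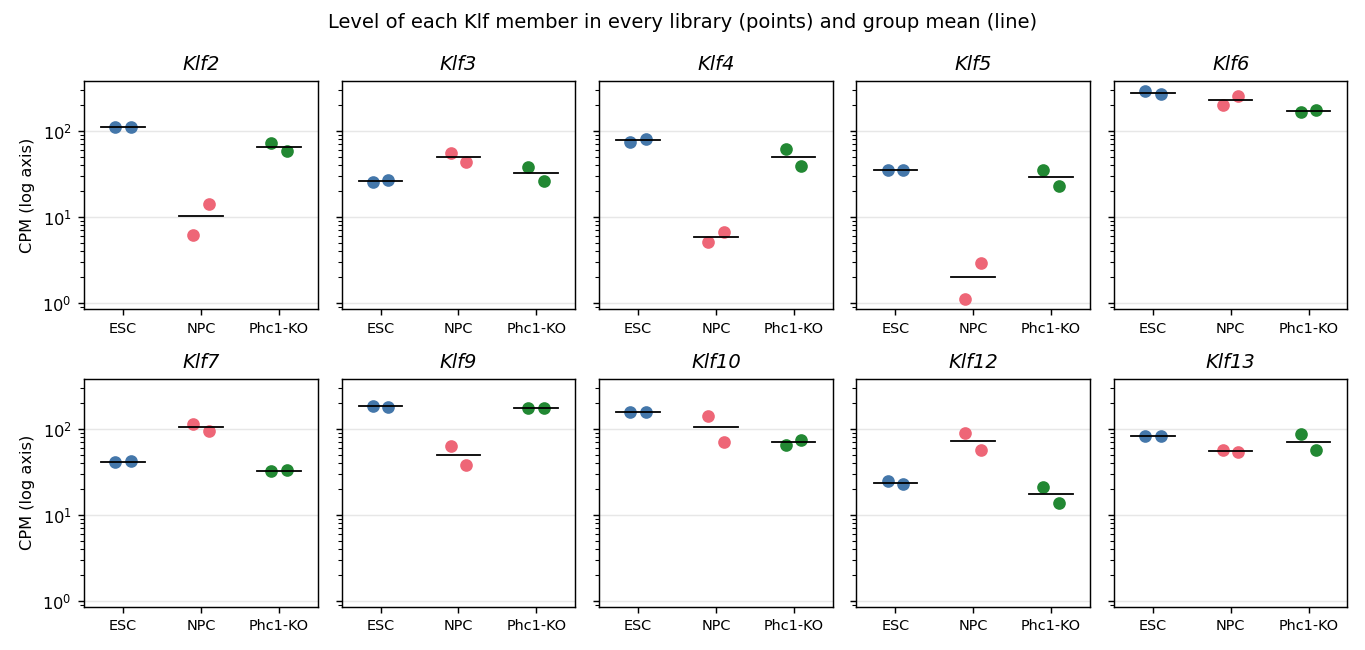
Level of each of the 10 members in each library, in CPM on a log axis, with 1 point per library, colours for ESC, NPC and Phc1-KO and a line at the group mean. Klf2, Klf4 and Klf5 sit lowest in both NPC libraries, and Klf3, Klf7 and Klf12 sit highest there.

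Klf3 and Klf12, which recruit the co-repressor CtBP, moved the opposite way and rose from ESC to NPC. Klf12 (ENSMUSG00000072294, chr14:100269869-100549015, minus strand) stood at 24.6 and 22.6 CPM in ESC, 88.4 and 56.0 CPM in NPC and 20.9 and 13.7 CPM in Phc1-KO. Its NPC libraries were above every other library, although they differed from each other 1.58-fold. The rise was 3.06-fold, a log2 fold change of 1.61 (SE 0.28, edgeR adjusted p = 0.00229). Klf12 is the neighbour of Klf5 on chromosome 14: their mm9 gene models are 557 kb apart with 4 annotated genes between them, of which 0 are protein-coding and 0 had counts enough to be tested. The neighbours thus changed in opposite directions from ESC to NPC.

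Klf3 (ENSMUSG00000029178, chr5:65194628-65221368, plus strand), known for roles in fat and blood cells, stood at 25.3 and 26.6 CPM in ESC, 56.0 and 43.4 CPM in NPC and 38.1 and 26.3 CPM in Phc1-KO. NPC was highest, and 1 Phc1-KO library was level with ESC. It rose 1.91-fold from ESC to NPC, a log2 fold change of 0.94 (SE 0.22, edgeR adjusted p = 0.00889). Over 16 alternative analyses the adjusted p ranged from 0.00115 to 0.0671, and it missed 0.05 without ESC 1 (0.0671), without ESC 2 (0.0539) and with the ESC pair counted as 1 library (0.0623).

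Klf6 and Klf7 are closely related activators, of which only Klf7 passed the test between ESC and NPC. Klf7 (ENSMUSG00000025959, chr1:64076021-64168856, minus strand), which is needed for axon outgrowth in the developing nervous system, stood at 41.0 and 41.6 CPM in ESC, 113 and 93.7 CPM in NPC and 32.1 and 32.6 CPM in Phc1-KO. The groups did not overlap, and the Phc1-KO pair lay just below ESC. Klf7 rose 2.51-fold from ESC to NPC, a log2 fold change of 1.33 (SE 0.15, edgeR adjusted p = 0.000304). Of its exon bases, 39.4% are covered by genes on the opposite strand, almost all by Gm17427, which had 0 counts in all 6 libraries. Whether counting used the strand was not given in the sources used here. If it did not, reads over the shared bases may have been tallied as ambiguous and left out of both genes. The RPKM and share of Klf7 may then be too low, and the 0 counts of Gm17427 would not show that it was silent.

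Klf6 (ENSMUSG00000000078, chr13:5860735-5869639, plus strand), a gene induced by injury and serum in many cells, had the highest CPM of the members in ESC and NPC, at 288 and 267 CPM in ESC, 201 and 252 CPM in NPC and 167 and 174 CPM in Phc1-KO. ESC was highest and Phc1-KO lowest, without overlap. Between ESC and NPC the log2 fold change of -0.29 did not pass (SE 0.14, 95% interval -0.63 to 0.05, edgeR adjusted p = 0.118). Its alternatives gave 0.0252 to 0.430, and it passed only without NPC 2 (0.0252).

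Klf9, Klf10 and Klf13 recruit Sin3 co-repressors. Klf9 (ENSMUSG00000033863, chr19:23215716-23241401, plus strand), which thyroid and glucocorticoid hormones induce in neurons, stood at 185 and 179 CPM in ESC, 62.0 and 37.9 CPM in NPC and 175 and 175 CPM in Phc1-KO. NPC alone was low, and the Phc1-KO pair lay just under ESC. Klf9 fell 3.65-fold from ESC to NPC, a log2 fold change of -1.87 (SE 0.22, edgeR adjusted p = 0.000452).

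Klf13 (ENSMUSG00000052040, chr7:71031237-71083801, minus strand), known from T cells, stood at 81.7 and 82.1 CPM in ESC, 56.7 and 53.0 CPM in NPC and 85.5 and 56.1 CPM in Phc1-KO. The Phc1-KO pair lay on either side of ESC and overlapped NPC. Klf13 was 1.49-fold lower in NPC than in ESC, a log2 fold change of -0.58 (SE 0.20, edgeR adjusted p = 0.0420). The alternatives gave 0.00509 to 0.144, and the call was lost without ESC 1 (0.141), ESC 2 (0.144), NPC 1 (0.0736) or NPC 2 (0.121), with no filter (0.0543) and with the ESC pair as 1 library (0.124).

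Klf10 (ENSMUSG00000037465, chr15:38221219-38230464, minus strand), an early response gene of TGF-beta, stood at 154 and 158 CPM in ESC, 139 and 69.2 CPM in NPC and 64.3 and 74.0 CPM in Phc1-KO. The NPC libraries differed 2.01-fold: NPC 1 was near ESC and NPC 2 was among the Phc1-KO values. Between ESC and NPC the log2 fold change of -0.58 did not pass (SE 0.29, 95% interval -1.28 to 0.11, edgeR adjusted p = 0.125). Over the alternatives the adjusted p was 0.000978 to 0.380. Without NPC 1 the log2 fold change was -1.17 (0.000978), and without NPC 2 it was -0.16 (0.380).

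In all, 3 of 10 members were higher in NPC than in ESC and 5 were lower, and 2 did not pass. Over the 17489 genes tested 30.4% were higher and 30.9% lower, so a change between these cell types was common in the whole table, and the share of members called in either direction, 8 of 10, stands beside 61.3% for all genes. The groups did not overlap for 10 of 10 members, against 85.2% of all genes. The members' median log2 fold change was -0.58, against -0.01 over all genes tested. With upper-quartile scaling the all-gene median was -0.109, and the same members were higher and lower under it.

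**Figure D2:**
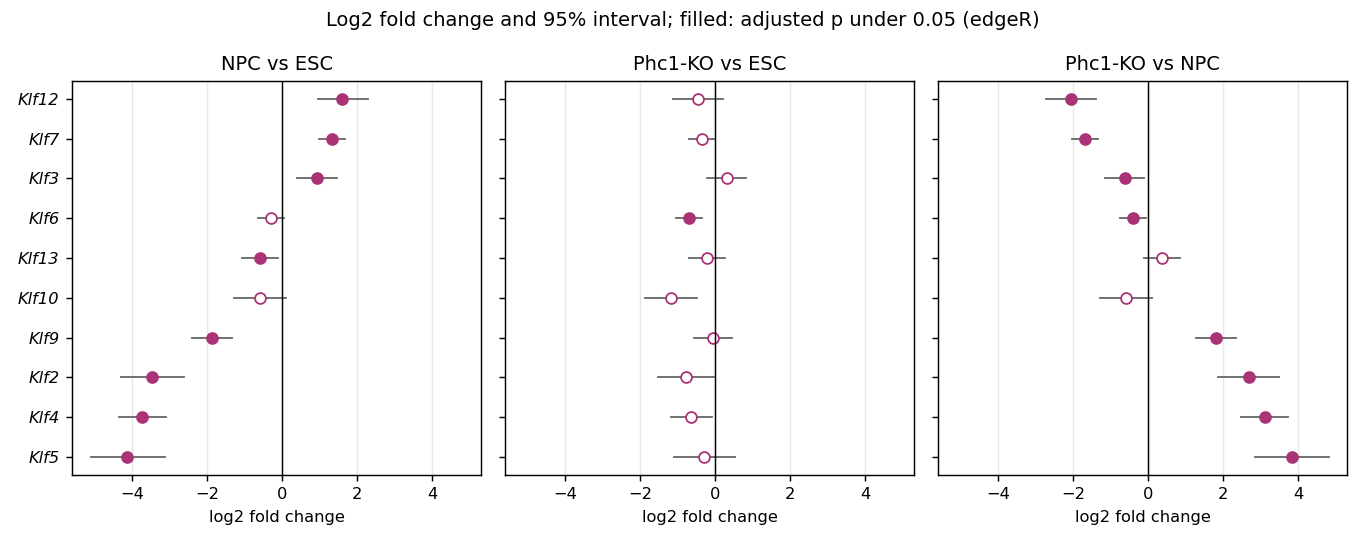
Log2 fold change of each member in the 3 comparisons, with 95% intervals from edgeR; filled points had an adjusted p under 0.05. For NPC against ESC the values run from -4.12 for Klf5 to 1.61 for Klf12, while for Phc1-KO against ESC they run from -1.17 for Klf10 to 0.31 for Klf3.

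The make-up of the 10 members as a set, called the family in what follows, changed between the groups. The sums, shares and order by RPKM cover these 10 only and leave out the other Klf genes. In ESC, mean RPKM was 15.1 for Klf16, 13.7 for Klf11, 8.85 for Klf8 and 6.26 for Klf15. Klf1, Klf14 and Klf17 were lower still. Counting these genes too would make each share smaller. Per length, the 10 members summed to 302 and 298 RPKM in ESC, 168 and 147 RPKM in NPC and 224 and 197 RPKM in Phc1-KO. By RPKM NPC was lowest and the groups did not overlap. By summed CPM, which takes no account of length, ESC was highest at 1022 and 1004 CPM. NPC, at 729.6 and 629 CPM, and Phc1-KO, at 751 and 673 CPM, then overlapped. Klf2, Klf4 and Klf5 together held 34.9% and 36.0% of the summed RPKM in ESC, 3.38% and 7.88% in NPC and 35.3% and 29.4% in Phc1-KO. The NPC shares were far below the others, and those of ESC and Phc1-KO overlapped. With 2 libraries against 2, an exact two-sided permutation test cannot go below p = 0.333, so these sums and shares are given without a test.

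The members that took up the share in NPC differed in kind. Klf6 held 21.9% of the family RPKM in ESC, 34.5% in NPC and 19.3% in Phc1-KO, as means of 2 libraries. Its level did not pass the test between ESC and NPC, while the family sum was lower in NPC. Of the members whose own levels rose, Klf3 went from 3.31% in ESC to 12.7% and 11.3% in the NPC libraries. Klf7 went from 1.69% to 8.06% and Klf12 from 1.37% to 7.92%, again as means. Klf9 held 18.6% in ESC, 9.59% in NPC and 25.5% in Phc1-KO, where it was the leading member. How firmly such shares can be read depends on gene length: per coding length, the shares of Klf2, Klf4 and Klf5 were 18.2% in ESC, 2.29% in NPC and 15.7% in Phc1-KO.

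**Figure D3:**
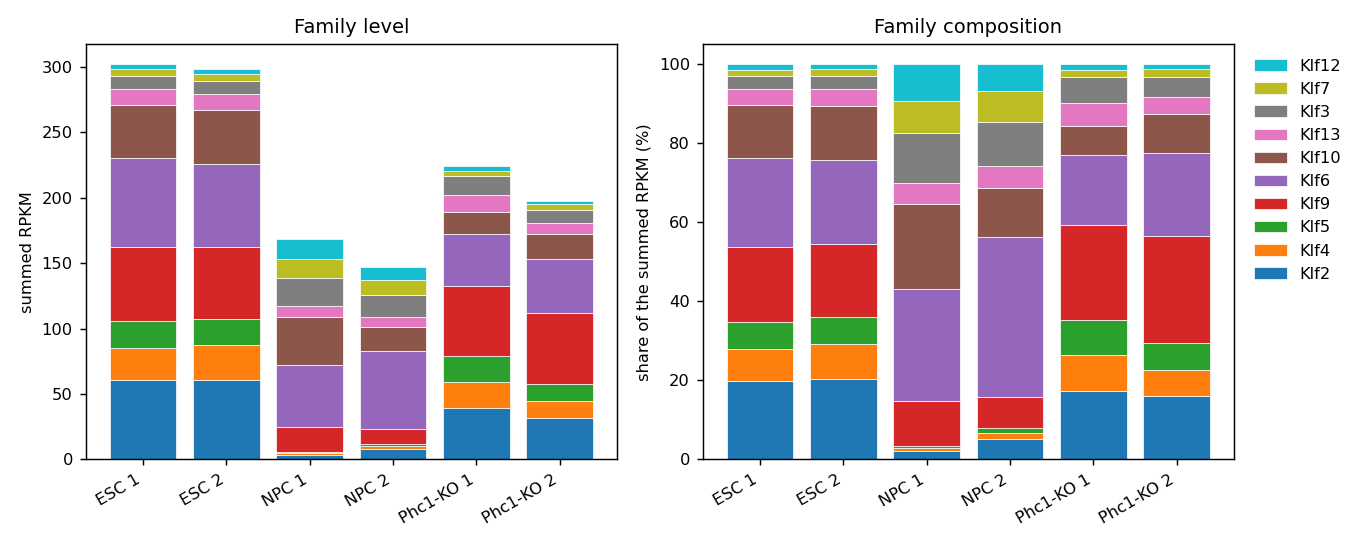
Summed RPKM of the 10 members (left) and the share of it held by each in percent (right), as 1 stacked bar per library. The sum is 302 and 298 RPKM in ESC and 168 and 147 RPKM in NPC, and the part held by Klf2, Klf4 and Klf5 is 34.9% and 36.0% in ESC, 3.38% and 7.88% in NPC and 35.3% and 29.4% in Phc1-KO.

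In order of RPKM (mean ± SD, n = 2), ESC had Klf6 at 65.8 ± 3.59, Klf2 at 60.6 ± 0.416, Klf9 at 55.8 ± 1.40, Klf10 at 40.8 ± 0.587 and Klf4 at 25.4 ± 1.11. Below these came Klf5 at 20.4 ± 0.0238, Klf13 at 12.4 ± 0.0493, Klf3 at 9.94 ± 0.367, Klf7 at 5.08 ± 0.0569 and Klf12 at 4.12 ± 0.252. No neighbours in this order overlapped between libraries, in the group whose libraries were closest. The order depends on the length used, here that of merged exons. Klf9 had 182 CPM over 732 coding bases in ESC and Klf2 112 CPM over 1062, so Klf9 would stand above Klf2 by coding length. In NPC the order was Klf6 at 53.8 ± 8.47, Klf10 at 27.3 ± 13.0, Klf3 at 19.0 ± 3.41, Klf9 at 15.3 ± 5.23, Klf7 at 12.7 ± 1.70 and Klf12 at 12.6 ± 4.01. Then followed Klf13 at 8.31 ± 0.397, Klf2 at 5.54 ± 3.05, Klf4 at 1.92 ± 0.375 and Klf5 at 1.17 ± 0.741. Each neighbouring pair from Klf10 down to Klf12 overlapped, as did Klf4 and Klf5, so their order is not resolved, while Klf6 was first in both NPC libraries. In Phc1-KO, Klf9 led at 53.6 ± 0.0677, ahead of Klf6 at 40.5 ± 1.20 and Klf2 at 35.4 ± 5.07. Klf10 at 18.1 ± 1.79, Klf5 at 16.8 ± 4.89, Klf4 at 16.4 ± 4.95, Klf3 at 12.3 ± 3.20 each overlapped the next, down to Klf13 at 10.7 ± 3.16, which did not overlap Klf7. Klf7 at 3.97 ± 0.0482 and Klf12 at 3.03 ± 0.897 were lowest.

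In Phc1-KO cells most members stayed nearer their ESC level, and Klf6 was the member that passed the test against ESC. From the libraries given above, Klf6 was 1.62-fold lower in Phc1-KO than in ESC, a log2 fold change of -0.70 (SE 0.14, edgeR adjusted p = 0.0296). Over the 16 alternatives its adjusted p ranged from 0.00351 to 0.300, with 11 under 0.05. The call was lost without ESC 1 (0.300), ESC 2 (0.214), Phc1-KO 1 (0.0834) or Phc1-KO 2 (0.115) and with the ESC pair as 1 library (0.235). In this comparison 0 of 10 members were higher and 1 lower, where 4.91% of all genes tested were higher and 5.75% lower, so the members' count is near that of the table. With total-count scaling the share of higher among all called genes was 35.8%, against 46.0% as tested. The groups did not overlap for 8 of 10 members, against 66.7% of all genes.

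Klf10 had the largest difference from ESC among the members, 2.26-fold lower in Phc1-KO, and lay at the threshold, with a log2 fold change of -1.17 (SE 0.30, 95% interval -1.88 to -0.47, edgeR adjusted p = 0.0510). Its alternatives gave 0.00268 to 0.235. It passed without NPC 1 (0.00281) or NPC 2 (0.00279), in a fit of ESC and Phc1-KO alone (0.00268), by DESeq2 (0.00468), and with upper-quartile (0.0464) or total-count scaling (0.0438). Klf2 had a log2 fold change of -0.77 (SE 0.32, 95% interval -1.52 to -0.03, edgeR adjusted p = 0.157). It passed without NPC 1 (0.0142) or NPC 2 (0.0144) and in the fit of ESC and Phc1-KO alone (0.0141), within a range of 0.0141 to 0.465.

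The other members did not pass against ESC. Klf4 had a log2 fold change of -0.63 (95% interval -1.17 to -0.08, edgeR adjusted p = 0.124) and Klf7 one of -0.35 (-0.69 to -0.01, adjusted p = 0.160). For Klf5 it was -0.29 (-1.09 to 0.52), for Klf12 -0.45 (-1.11 to 0.22), for Klf13 -0.21 (-0.69 to 0.27) and for Klf3 0.31 (-0.21 to 0.83). Klf9 had the smallest difference, -0.06 (-0.57 to 0.45). In total 9 of 10 log2 fold changes were negative, with a median of -0.40 against 0.0 over all genes. Leaving out Phc1-KO 2 turned the value of Klf13 to 0.07.

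The members varied in how far the Phc1-KO libraries differed from each other, in a pair that varied by 18.1% beyond counting noise over the genes tested. Klf3, Klf4, Klf5, Klf12 and Klf13 were 1.45-fold to 1.54-fold higher in Phc1-KO 1 than in Phc1-KO 2, and Klf2 was 1.23-fold higher. Klf6, Klf7, Klf9 and Klf10 had ratios between 0.869 and 0.998. Between the ESC libraries the largest ratio of a member was 1.09. Phc1-KO 1 was also the library with more reads outside genes, as given above, and the part of this in the ratios was not tested.

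Against NPC, the Phc1-KO libraries differed for 8 of 10 members, 4 higher and 4 lower, where 32.3% of all genes tested were higher and 32.7% lower, together 64.9%. The groups did not overlap for 8 of 10 members, against 81.4% of all genes. Klf5 was 14.2-fold higher in Phc1-KO, a log2 fold change of 3.83 (SE 0.42, edgeR adjusted p = 0.000263), Klf4 8.54-fold (3.10, SE 0.26) and Klf2 6.39-fold (2.68, SE 0.35). Klf9 was 3.50-fold higher (log2 fold change 1.81, SE 0.22). Klf12 was 4.17-fold lower in Phc1-KO (-2.06, SE 0.29, adjusted p = 0.000745) and Klf7 3.20-fold lower (-1.68, SE 0.15, adjusted p = 0.000113). These 6 calls held in all 16 alternatives.

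The calls on Klf3 and Klf6 against NPC were less stable. Klf3 was 1.54-fold lower in Phc1-KO than in NPC (log2 fold change -0.63, SE 0.22, edgeR adjusted p = 0.0392, alternatives 0.0207 to 0.179). It passed in 8 of 16 alternatives and missed without ESC 1 (0.0822), ESC 2 (0.0818), NPC 1 (0.151) or Phc1-KO 2 (0.179). Klf6 was 1.33-fold lower (-0.41, SE 0.14, adjusted p = 0.0399, alternatives 0.00912 to 0.153) and passed in 4 of 16 alternatives. It missed without ESC 1 (0.120), ESC 2 (0.118), NPC 2 (0.153), Phc1-KO 1 (0.123) or Phc1-KO 2 (0.0919). Klf10 (-0.59, 95% interval -1.29 to 0.11) and Klf13 (0.37, -0.11 to 0.85) did not pass, except Klf10 without NPC 2 (0.00126) and Klf13 without Phc1-KO 2 (0.00910). The 3 comparisons share libraries, so their values for a member are not independent of each other.

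Patterns over the 6 libraries were compared by the distance between centred log2 CPM profiles, where a smaller distance means a more similar pattern. Within the family Klf7 and Klf12 were closest, at 0.663, followed by Klf2 and Klf4, at 0.669. Klf5 was nearest to Klf4, at 1.11, and Klf9 stood apart, with its nearest member, Klf13, at 1.76. Among 11270 candidate genes the closest to Klf4 were Nos1 at 0.358 and Itga3 at 0.386, and Klf2 ranked 9. The closest to Klf2 were Col8a1 at 0.469 and Rab11fip1 at 0.505, and to Klf5 Pard6b at 0.452 and Tnfrsf1b at 0.671. The closest to Klf7 was Tbc1d4 at 0.123, with Klf12 at rank 510. Closest to Klf12 was Setbp1 at 0.196, to Klf9 Mthfd1 at 0.167, to Klf6 Pnpla7 at 0.111, to Klf10 Asrgl1 at 0.298 and to Klf13 Kcnh2 at 0.104. These distances describe 6 libraries, most of whose variation is between the groups.

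The remaining Klf genes of the mouse that were listed are Klf1, Klf8, Klf11, Klf14, Klf15, Klf16 and Klf17, of which 6 had counts enough to be tested. From ESC to NPC, 1 rose and 5 fell, with a median log2 fold change of -1.39. These counts, and those of each gene list that follows, stand beside 30.4% of all genes tested higher and 30.9% lower in NPC. Between Phc1-KO and ESC the shares of all genes were 4.91% higher and 5.75% lower. Klf8, a CtBP-recruiting relative of Klf3 and Klf12, had 752 and 752 reads in ESC, 15 and 9 in NPC and 516 and 537 in Phc1-KO. It fell by 5.86 on the log2 scale (SE 0.26, edgeR adjusted p = 1.04e-05), opposite to Klf3 and Klf12, and was lower in Phc1-KO than in ESC (-0.80, SE 0.19, adjusted p = 0.0402, alternatives 0.00511 to 0.336). That call was lost without ESC 1 (0.336), ESC 2 (0.310), Phc1-KO 1 (0.0980) or Phc1-KO 2 (0.155), with the ESC pair as 1 library (0.307), no filter (0.0569) and a replicate block (0.0565). Klf14, which had 6 and 6 reads in ESC, rose to 154 and 108 in NPC and had 6 and 5 in Phc1-KO. Klf11, the closest relative of Klf10, fell by 1.82 from ESC to NPC (SE 0.33). Klf1, the erythroid factor, fell by 2.79 (SE 0.49) from 18 and 13 reads to 2 and 2.

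The Sp factors bind the same GC-rich sites. Of 7 tested, 1 rose and 3 fell from ESC to NPC, together near the 61.3% of all genes tested that passed in either direction. Sp5 fell by 4.09 on the log2 scale (SE 0.31), Sp1 fell by 0.90 (SE 0.13) and Sp3 rose by 0.45 (SE 0.13). The rise of Sp3 was lost without ESC 1 (0.177), ESC 2 (0.171) or NPC 2 (0.0663) and with the ESC pair as 1 library (0.200), and its alternatives started at 0.0137. Sp5, a target of WNT signalling, was also the Sp gene that was lower in Phc1-KO than in ESC, at 1.83 and 1.50 CPM against 16.2 and 15.3 CPM (log2 fold change -3.24, SE 0.28, edgeR adjusted p = 0.00291). Its level in Phc1-KO was near that of NPC, at 1.12 and 0.714 CPM. Without Phc1-KO 2 its adjusted p was 0.0516, the highest of the 16 alternatives, which started at 2.58e-15.

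**Figure D4:**
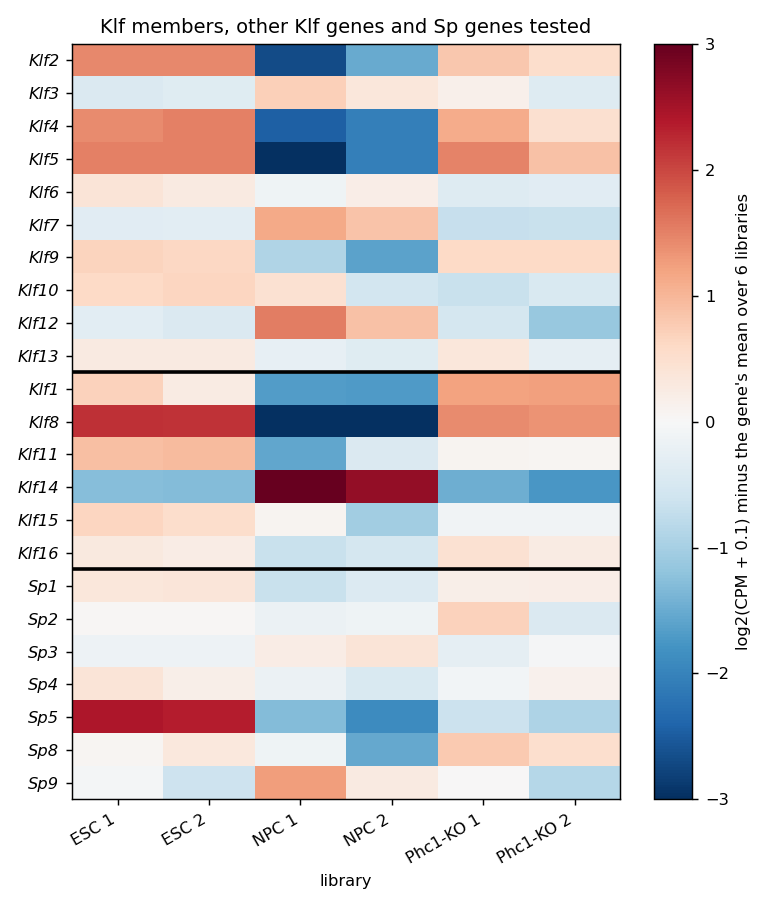
Log2 CPM, with the small offset named on the colour bar, of each member, the other Klf genes tested and the Sp genes tested in the 6 libraries, centred on each gene's mean; colours end at 3 in either direction. Klf2, Klf4, Klf5, Klf9 and Klf8 are below their mean in both NPC libraries, and Klf3, Klf7, Klf12 and Klf14 are above it there.

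Of 9 cofactor genes through which the factors act, 2 rose and 5 fell from ESC to NPC. These counts were 1 and 3 without ESC 1, without ESC 2 and with the ESC pair as 1 library, and 4 rose without Phc1-KO 1 or Phc1-KO 2. Between Phc1-KO and ESC 0 passed by edgeR, with 2 at an unadjusted p under 0.05 and 1 by DESeq2. The CtBP genes parted: Ctbp1 stood at 63.5 and 61.0 CPM in ESC against 149.9 and 126 CPM in NPC (log2 fold change 1.15, SE 0.14), while Ctbp2 stood at 199 and 196 CPM in ESC against 65.2 and 52.3 CPM in NPC (-1.75, SE 0.15). The partner of Klf3 and Klf12 that was higher in NPC was thus Ctbp1. Sin3a, the partner of Klf9, Klf10 and Klf13, fell from 292 and 306 CPM to 113 and 112 CPM (-1.41, SE 0.12).

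Of 5 LIF receptor and STAT3 genes, the 4 that act upstream of Klf4 rose from ESC to NPC, and Socs3 fell. The 4 became 2 without ESC 1 and 1 without ESC 2 or with the ESC pair as 1 library, while Jak1 passed in all 16 alternatives. Jak1 rose by 1.18 (SE 0.13), Il6st, the shared receptor gp130, by 0.86 (SE 0.25), and Socs3, the feedback inhibitor that STAT3 induces, fell by 2.40 on the log2 scale (SE 0.17). Klf4 and Socs3, both known STAT3 targets, were thus lower in NPC, and Stat3 itself, at 155 and 138 CPM in ESC against 299 and 211 CPM in NPC, was higher. In Phc1-KO 3 of 5 were lower than in ESC and 0 higher. Socs3 stood at 56.0 and 57.5 CPM against 137 and 131 CPM (-1.24, SE 0.16, edgeR adjusted p = 0.00891), and Il6st and Lifr were also lower (-1.08, SE 0.25, and -0.53, SE 0.11). The count of 3 was 0 without ESC 1, ESC 2 or Phc1-KO 2 and with the ESC pair as 1 library, and 1 without Phc1-KO 1 and with a replicate block.

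Among 8 TGF-beta ligands, receptors and Smad genes, known inputs of Klf10, 6 rose and 0 fell from ESC to NPC. Between Phc1-KO and ESC 0 passed by edgeR, with 1 at an unadjusted p under 0.05 and 1 by DESeq2. Tgfb2 rose by 2.91 (SE 0.44), Tgfbr2 by 2.08 (SE 0.22) and Smad3 by 1.93 (SE 0.18), while Klf10 had the log2 fold change of -0.58 given above. Of 4 nuclear receptors that induce or partner Klf9, 3 rose and 1 fell from ESC to NPC. The thyroid hormone receptor genes Thrb and Thra rose by 3.86 (SE 0.55) and 2.77 (SE 0.20), and the progesterone receptor gene Pgr fell by 3.19 (SE 0.45). Klf9 fell in the same libraries. In Phc1-KO, Thrb was higher than in ESC (2.85, SE 0.56, edgeR adjusted p = 0.0261, alternatives 0.000139 to 0.179), but not without ESC 1 (0.179), ESC 2 (0.161), Phc1-KO 1 (0.0597) or Phc1-KO 2 (0.0549) or with the ESC pair as 1 library (0.126), while Klf9 had the log2 fold change of -0.06 given above.

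Klf6 and Klf10 are themselves early response genes, so 10 immediate early genes were set beside them. From ESC to NPC, 0 rose and 8 fell, with a median log2 fold change of -1.95. Between Phc1-KO and ESC 0 were higher and 3 lower, Atf3 by 1.25 (SE 0.27), Dusp1 by 1.16 (SE 0.14) and Jun by 0.87 (SE 0.13) on the log2 scale, with a median of -0.88. Their summed level was 799.6 and 798 CPM in ESC, 307 and 411 CPM in NPC and 590.0 and 492 CPM in Phc1-KO. This sum was lowest in NPC, whereas Klf6 and Klf10 had their lowest means in Phc1-KO. The count of 3 ran from 0 to 6 over the alternatives, with 0 without ESC 1, ESC 2 or Phc1-KO 2 and with the ESC pair as 1 library, 5 without Phc1-KO 1 and 6 without NPC 1 or NPC 2. The part of this early response in the values of Klf6 and Klf10 was not tested.

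Markers of other cell types moved with the same groups. Of 8 macrophage markers tested, 8 were lower in NPC and 6 lower in Phc1-KO than in ESC. All 10 listed summed to 138 and 138 CPM in ESC, 6.44 and 8.38 CPM in NPC and 27.4 and 20.8 CPM in Phc1-KO, with Emr1, Itgam and Tyrobp at 0 in both NPC libraries. The count of 6 was 1 without Phc1-KO 2, 3 without Phc1-KO 1, and 2 without ESC 1, without ESC 2 and with the ESC pair as 1 library. Klf2, Klf4 and Klf6 are also expressed in macrophages, and the part of such cells in their higher ESC levels was not tested. Of 12 fibroblast markers, 10 were higher and 1 lower in NPC, and 7 higher and 0 lower in Phc1-KO, a count that was 4 without ESC 1, ESC 2 or Phc1-KO 2. They summed to 459.9 and 450.5 CPM in ESC, 7390.5 and 11646 CPM in NPC and 1284 and 1127 CPM in Phc1-KO, and neural cultures also express several of them. Of 8 endothelial markers tested, 2 were higher and 4 lower in NPC, and 0 higher and 1 lower in Phc1-KO, the latter 0 without ESC 1, ESC 2 or Phc1-KO 2 and 2 without NPC 1 or NPC 2. All 9 listed summed to 70.7 and 67.0 CPM in ESC, 76.1 and 90.2 CPM in NPC and 46.3 and 51.3 CPM in Phc1-KO, with Cldn5 at 0 in both NPC libraries. The NPC sum is mostly Emcn, at 60.7 and 65.4 CPM there, while Pecam1 fell from 40.6 and 36.6 CPM in ESC to 0.658 and 0.649 CPM in NPC. Klf2 is also a gene of endothelium and Klf4 of fibroblasts, and the part of such cells in their levels was not tested. Astrocyte markers, 5 of 5 higher in NPC by edgeR and 3 by limma-voom, summed to 57.7 and 58.9 CPM in ESC, 855 and 1135 CPM in NPC and 37.2 and 46.2 CPM in Phc1-KO.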

How the data were processed

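Values deposited by the authors are raw read counts per Ensembl gene, made with STAR and HTSeq on mm9, per the submitters' processing notes; their versions, the annotation and whether strand was used: not given in the sources used here. Total RNA was depleted of ribosomal RNA and sequenced as 50-base single-end reads, per the labels' protocols. Each table had 37620 genes and 5 tallies of reads assigned to no gene (no-feature reads were 0.6605 to 1.091 per gene read), which were left out. GENCODE M1 (mm9) named 37205 genes and gave exon lengths and positions; promoters came from RefSeq (GRCm38.p6), with windows for 8 of 10 members and none printed for Klf5 and Klf10.

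Counts of all 6 libraries were fitted with edgeR 4.0.16 in R 4.3.3 (quasi-likelihood F test, 1 term per group, TMM, filterByExpr with minimum count 10 and total 15, 3 residual degrees of freedom). P-values were adjusted over 17489 genes, with a threshold of 0.05. SE is the size of the log2 fold change over the square root of F. The fit was tested on simulated data. Reads carry no molecular identifiers, so precision from depth covers counting error only. Pattern distances are Euclidean, over named genes, numbered models left out, with a mean of at least 4 CPM over the 6 libraries.

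The members and 15 other gene lists were chosen with earlier results of these data known. Named genes were all members, Phc1, the nearest genes by pattern and, per list and comparison, up to 3 of the largest changes that passed, others being named after their values were seen; 1 gene that met this rule is not reported here. The 16 alternatives were DESeq2 1.42.0, limma-voom (limma 3.58.1), 3 other scalings, 2 other filters, fits of the compared groups alone, a replicate block, each library left out (its partner is then assumed to vary like the other groups) and the ESC pair as 1 library.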

Additional observations from a re-analysis of the deposited data

How the results depend on the processing

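Of 160 member values per comparison under the 16 alternatives, 149 for NPC against ESC, 145 for Phc1-KO against ESC and 137 for Phc1-KO against NPC kept direction and side of the threshold. Direction turned for Klf13 in Phc1-KO against ESC without Phc1-KO 2 (0.07, against -0.54 without Phc1-KO 1) and for Klf10 in Phc1-KO against NPC without NPC 1 (0.0, adjusted p = 0.980, against -1.01 without NPC 2); the cause was not tested. The count of members lower in Phc1-KO than in ESC, 1 as reported, was 2 by DESeq2, upper-quartile and total-count scaling, 3 in a fit of those groups alone, 0 with the ESC pair as 1 library, and 0 to 3 with a library left out. The count lower in Phc1-KO than in NPC, 4 as reported, was 2 with upper-quartile scaling, no filter, the compared groups alone and the ESC pair as 1 library, and 2 to 4 with a library left out.

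The share of Klf2, Klf4 and Klf5 in ESC was 34.1% by longest transcript, 37.1% by windows found once in the genome and 18.2% by coding length, which gave 2.29% in NPC and 15.7% in Phc1-KO. The family sum in ESC was 312, 325 and 1018 RPKM by the same lengths, 309 with total-count scaling and 304 without exons shared with other genes; by coding length it was 679 in NPC and 747 in Phc1-KO. Lengths by unique windows and unshared exons, and the alternatives for gene lists, were added after seeing the data.

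Over all genes, Phc1-KO against ESC gave 858 higher and 1006 lower. These were 1359 and 1089 by DESeq2, 1791 and 2108 in a fit of those groups alone, 46 and 66 without ESC 1, 32 and 60 without ESC 2, 1757 and 1958 without NPC 1, 1754 and 1947 without NPC 2, 672 and 501 leaving out Phc1-KO 1, 81 and 57 leaving out Phc1-KO 2, and 62 and 83 with the ESC pair as 1 library. The other comparisons gave counts of 3564 to 5964 per direction.

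Same-numbered libraries did not deviate together (r over genes of 0.0147, 0.0114 and -0.0174 for the 3 group pairs), so numbers were not read as pairs. With a replicate block the member counts were 3 higher and 5 lower for NPC against ESC, 0 and 1 for Phc1-KO against ESC and 4 and 3 for Phc1-KO against NPC, where Klf6 had an adjusted p = 0.0581; over all genes Phc1-KO against ESC gave 636 and 791. Depth limits the NPC values of Klf5 most.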

Other observations

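Klf2, Klf4 and Klf5 proteins are turned over through ubiquitin ligases, and 7 ligase genes were measured. From ESC to NPC, 3 rose and 0 fell, with a median log2 fold change of 0.35, where 61.3% of all genes tested passed in either direction. Smurf1, which targets Klf2, stood at 51.4 and 52.4 CPM in ESC against 82.0 and 94.4 CPM in NPC (log2 fold change 0.77, SE 0.16). Btrc rose by 0.73 (SE 0.13) and Vhl by 0.58 (SE 0.19). The count of 3 was 1 without ESC 1, 0 without ESC 2 and with the ESC pair as 1 library, and 5 without Phc1-KO 1 or Phc1-KO 2. Between Phc1-KO and ESC 0 genes of the list passed by edgeR and by DESeq2, with 1 at an unadjusted p under 0.05.

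Of 5 genes of the ERK5 and MEF2 pathway, which induces Klf2 in endothelium, 2 rose and 0 fell from ESC to NPC while Klf2 fell. Among all genes tested, 61.3% passed in either direction. Mef2c stood at 2.41 and 2.68 CPM in ESC, 62.9 and 42.3 CPM in NPC and 2.15 and 1.74 CPM in Phc1-KO, a log2 fold change of 4.37 (SE 0.28, edgeR adjusted p = 3.51e-05) from ESC to NPC. Mef2a rose by 1.38 (SE 0.18). Between Phc1-KO and ESC 0 of the 5 passed by edgeR and by DESeq2, with 1 at an unadjusted p under 0.05 and 1 passing without Phc1-KO 1.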
